A study of Mus musculus with 6 samples.

Results

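Natural killer (NK) cells are lymphocytes of innate immunity that carry no rearranged antigen receptor. They kill stressed or infected cells with granzymes and perforin, and they release interferon gamma and chemokines. Their activity is set by a balance of activating and inhibitory surface receptors, many of which are lectin-like proteins encoded together on mouse chromosome 6, the NK gene complex. IL-12, IL-15 and IL-18 activate them, and the last of these is a cytokine that inflammasomes process into its active form. In injured tissue they arrive with other leukocytes and can act on macrophages, neutrophils and stromal cells.

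The cells came from the injured and repaired rotator cuff enthesis, the insertion of tendon into bone, of mice at 7 days post injury (dpi). Single-cell RNA was measured in 6 libraries, of which 3 came from wild-type controls and 3 from mice termed Nlrp3-/-, in which the gene for the sensor protein of the NLRP3 inflammasome was knocked out. The wild-type animals were C57BL/6 mice from 1 supplier and the Nlrp3-/- animals came from another. Both groups had the same injury and repair, entheses were pooled, and the number of animals behind each library is not given in the sources used here, while the study's methods state an age range for the injury model as a whole and not for single libraries. The groups follow the library titles, because the genotype field of Nlrp3-/- replicates 2 and 3 names Nlrp4 and Nlrp5 instead. The study counts as many mice per genotype as there are libraries, but no label says that the libraries were separate pools of animals. P-values measure the spread between libraries, part of which may be technical.

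NK cells were chosen by raw counts of unique molecular identifiers (UMIs), each of which stands for 1 captured RNA molecule. Of 85339 barcodes with at least 1000 UMIs, at least 200 genes and at most 10% mitochondrial UMIs, 559 had a UMI of Ncr1 (the activating receptor NKp46) or Klrb1c (NK1.1). At least 2 UMIs of the granule gene Nkg7 left 390, and at most 1 UMI over the T cell receptor subunits Cd3d, Cd3e and Cd3g left 258. No UMI of the B cell gene Cd79a, at most 2 of the macrophage genes C1qa, C1qb and C1qc, none of the neutrophil gene Csf3r and less than 0.5% of UMIs from the collagen genes Col1a1, Col1a2 and Col3a1 left 226 NK cells. The wild-type libraries held 44, 78 and 36 of them and the Nlrp3-/- libraries 15, 21 and 32. Their median depth per library was between 2454 and 3493.5 UMIs, the smallest cell had 1069 and the largest 45277, and no NK barcode was shared between libraries. These thresholds were set on the measured values, so the levels of the 14 genes in the rule describe the choice and are not a result.

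The libraries held between 97042713 and 134901999 UMIs, with medians of 4874 to 7421 UMIs per quality-passing cell in 5 of them. Nlrp3-/- replicate 1 stood apart with 22048 such cells, against 9903 to 15515 in the others, at a median of 2069 UMIs, so the NK shares below are also given without it. The targeted gene followed the titles in NK cells: Nlrp3 had 1, 10 and 32 UMIs in the wild-type libraries and 0 in each Nlrp3-/- library, which with a floor of 3 counts over the group is at least 5.16-fold lower. Of the 43 wild-type UMIs, 40 sat in the 3 highest cells of each library, while the bound takes each UMI as independent and covers the pooled group, not single libraries. Xist, the RNA that coats the inactive X chromosome of female cells, had 0 UMIs in wild-type NK cells and 59, 156 and 254 in Nlrp3-/- NK cells. The Y-linked gene Ddx3y gave 46 UMIs in wild-type NK cells and 0 in Nlrp3-/- NK cells. Genotype, sex and source of the animals therefore cannot be told apart in any comparison below.

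The label was checked against NK genes that the rule did not use. The 11 genes of the NK marker list that lie outside the rule all had UMIs in these cells. Klrd1, the CD94 chain of NK receptor pairs, was detected in 200 of 226 cells (88.5%), Il2rb, the chain through which IL-15 signals, in 205, Gzma, a granzyme, in 175, and Klre1, another lectin-like receptor, in 168. Eomes and Tbx21, the T-box factors that direct NK development, were detected in 123 and 69 cells. Because detection moves with depth, every cell was also thinned to 1000 UMIs. Klrd1 then appeared in 64.2% of NK cells, 21.3% of T cells, 0.321% of B cells and 0.373% of neutrophils, and Gzma in 70.4%, 4.54%, 0.0428% and 0.0589%. The B cell and neutrophil shares show the level that free RNA can give. T cells here are the 1190 cells with at least 2 Cd3 UMIs and no UMI of Ncr1 or Klrb1c, under the same other limits. B cells are those with at least 2 Cd79a UMIs and neutrophils those with at least 2 Csf3r UMIs. Both had no UMI of Ncr1, Klrb1c or the Cd3 genes, again under the same other limits.

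Of 12 T cell markers 4 were at 0. Cd4, Cd5, Cd8a and Cd8b1 had 0 UMIs in all 226 NK cells, which allows a share of up to 1.33% of cells with a UMI of each. Trac, the constant part of the alpha T cell receptor chain, was detected in 25 cells at a mean of 27.5 CPM (the UMIs of a gene scaled to 1000000 UMIs of that cell type in a library) against 496 CPM in T cells. Trbc1, a constant part of the beta chain, was higher, at 274 CPM in NK cells and 454 CPM in T cells. It had a UMI in 140 of 226 NK cells (61.9%) against 45.5% of T cells, and after thinning to 1000 UMIs in 28.8% and 28.6%, so Trbc1 was about as frequent in NK cells as in T cells. Trbc2, the other constant part of the beta chain, was detected in 73 NK cells (32.3%), at a mean of 178 CPM against 859 CPM in T cells. Cd28, a costimulatory receptor of T cells, was detected in 53 NK cells (23.5%), at 117 CPM against 205 CPM in T cells. Basophil and mast cell markers gave 0 UMIs for 5 of 5 genes, and 6 of 9 markers of type 2 and type 3 innate lymphoid cells were at 0.

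RNA of myeloid cells was widespread at a low level and high in a few NK cells. S100a8, an abundant neutrophil gene, had a UMI in 141 of 226 NK cells (62.4%), and after thinning to 1000 UMIs in 33.2% of NK cells, 32.4% of B cells and 29.9% of T cells. The 8 macrophage markers summed to 3473, 1044 and 1611 CPM in wild-type NK cells and to 346, 1012 and 507 CPM in Nlrp3-/- NK cells. The 8 neutrophil markers, of which Csf3r was at 0 by the rule, summed to 16080, 9917 and 979 CPM in the wild-type libraries and to 319, 61270 and 1030 CPM in the Nlrp3-/- libraries. In Nlrp3-/- replicate 2 a single cell gave 1845 of the 1865 UMIs of S100a8. Cells with over 1% of UMIs from these 2 lists numbered 9, 3 and 1 in the wild-type and 0, 1 and 0 in the Nlrp3-/- libraries. Their part in the results below was not tested, and values without them are given for the NK share, for dividing cells and for Gzma, Ccl5, Hcst, Ly6c2, Lgals1, Cxcl2, Il1b and Ifi30.

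The edges of the rule were examined once. The 23 cells with exactly 2 Nkg7 UMIs had 502 CPM of Klrd1 and 65.4 CPM of Eomes. The 22 cells left out with 1 Nkg7 UMI had 962 and 153 CPM, so the pooled levels just outside this limit were higher. Of the 137590 UMIs pooled over the 23 cells, 45277 came from a single cell of wild-type replicate 3, whose part was not tested. The 18 cells kept with 1 Cd3 UMI had 799 CPM of Klrd1 and 55.1 CPM of Trac, and the 15 cells left out with 2 Cd3 UMIs had 1051 and 142 CPM. The 1164 cells that met all limits but had no UMI of Ncr1 or Klrb1c had only 13.7 CPM of Klrd1 and 2.90 CPM of Eomes. Below the depth limit, with at least 500 but fewer than 1000 UMIs, there were 2 further cells.

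Compared with T cells of the same libraries, 234 genes were higher in NK cells in every library and 207 were higher in T cells, at a mean of at least 50 CPM in the higher type. This is a description without a test, because the rule selects on the same cells. The 15 genes with the largest ratio, leaving out the genes of the rule, were led by Klra4 and Klra8, which encode the Ly49D and Ly49H activating receptors. Klra4 was at 320 CPM in NK cells, between 170 and 466 in the 6 libraries, and at 0.686 CPM in T cells. Klra8 was at 304 CPM, between 195 and 402, against 2.13 CPM. Gzma was the most abundant of the 15, at 3042 CPM against 127 CPM in T cells.

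Of these 15 genes, 7 are lectin-like receptor genes of the NK gene complex: Klra3, Klra4, Klra8, Klrb1a, Klrb1b, Klrb1f and Klri2. They lie within 1.73 megabases of chromosome 6, from position 128609227 to 130337574 in build GRCm38. The other genes included Irf8, a transcription factor shared with dendritic cells and monocytes, at 557 CPM against 30.9 CPM, and Itgax, the CD11c integrin chain, at 80.2 CPM against 8.70 CPM. Adamts14, a procollagen-cleaving protease, was at 50.8 CPM against 1.41 CPM, Sulf2, an extracellular sulfatase, at 61.5 against 4.85 CPM, and Atp1b1, a sodium pump subunit, at 146 against 11.9 CPM. Nrgn and Spry2, an inhibitor of receptor tyrosine kinase signalling, were at 136 and 135 CPM against 12.6 and 12.8 CPM. On the T cell side, Il17a, the cytokine of type 17 T cells, averaged 943 CPM in T cells, between 71.6 and 4664 in the 6 libraries, with 0 UMIs in NK cells.

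**Figure D1:**
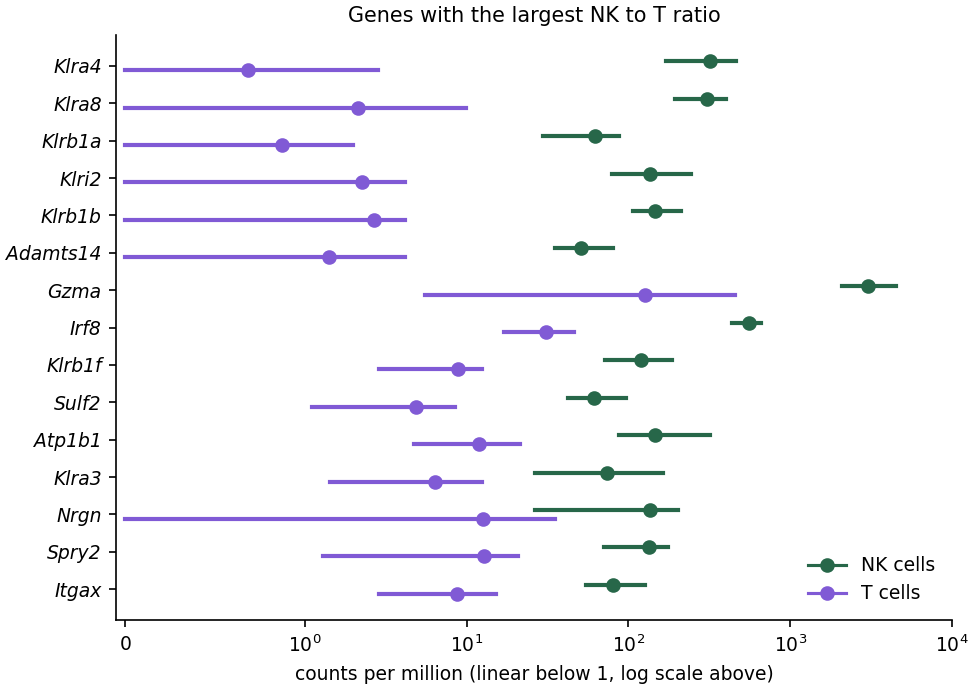
Levels of the 15 genes with the largest ratio of NK to T cells, in CPM on an axis that is linear below 1 and logarithmic above. Points are means of 6 libraries and lines run from the lowest to the highest library, and within every library the NK value was the higher.

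The promoters of 4 genes that mark these cells are shown because they lead the list above or define the rule, and because the Ly49 pair shows how alike the family members are. Each is the 250 bases before the RefSeq start in build GRCm38.p6, written on the strand of the gene, with matches to the 3 motifs below in capitals. Gzma lies at chr13:113100982-113101231 on the minus strand, Ncr1 at chr7:4337465-4337714 on the plus strand, Klra4 at chr6:130067272-130067521 and Klra8 at chr6:130129899-130130148, both on the minus strand.
Gzma: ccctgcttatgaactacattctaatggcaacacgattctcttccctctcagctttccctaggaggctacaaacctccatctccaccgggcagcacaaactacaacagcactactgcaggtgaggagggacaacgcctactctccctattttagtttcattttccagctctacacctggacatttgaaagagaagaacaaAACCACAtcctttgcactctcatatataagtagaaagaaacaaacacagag
Ncr1: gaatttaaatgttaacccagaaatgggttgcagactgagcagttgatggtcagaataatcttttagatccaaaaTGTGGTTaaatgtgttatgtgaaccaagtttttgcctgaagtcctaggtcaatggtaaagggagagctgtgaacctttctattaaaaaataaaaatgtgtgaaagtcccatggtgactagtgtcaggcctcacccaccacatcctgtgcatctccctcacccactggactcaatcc
Klra4: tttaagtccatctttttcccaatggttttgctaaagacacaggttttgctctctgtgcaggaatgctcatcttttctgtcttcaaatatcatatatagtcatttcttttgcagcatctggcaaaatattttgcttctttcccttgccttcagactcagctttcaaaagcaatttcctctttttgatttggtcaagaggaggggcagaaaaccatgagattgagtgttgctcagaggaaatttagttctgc
Klra8: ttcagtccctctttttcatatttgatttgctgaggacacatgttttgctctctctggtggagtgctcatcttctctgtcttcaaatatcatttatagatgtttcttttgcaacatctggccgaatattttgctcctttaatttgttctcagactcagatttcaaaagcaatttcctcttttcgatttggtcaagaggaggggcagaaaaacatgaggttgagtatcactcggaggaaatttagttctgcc

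The letters searched on both strands were TGTGGTT for RUNX factors, GGTGTGA for T-box factors and TTCNNNGAA for STAT factors. The RUNX letters occurred once in the Gzma promoter, starting 51 bases before the start, and once in the Ncr1 promoter, starting 176 bases before it, and neither Ly49 promoter held a match. Among all 32851 RefSeq promoters of this length, 4.4% held the RUNX letters, 3.33% the T-box letters and 7.02% the STAT letters. Of the 15 genes, 14 had promoters in the table, 18 in all, and these held 1, 0 and 1 match. The Klra4 and Klra8 promoters shared 212 of 250 bases (84.8%). As printed they are offset by 1 base, so this count holds only with the sequences shifted against each other, not position by position. Counted in the same way, promoters of unlike genes also shared many bases, 140 of 250 for Klra4 and Gzma and 135 of 250 for Klra8 and Ncr1. Those counts are therefore a background and not a likeness. Reads of Ly49 genes that come from near-identical transcripts could be assigned to the wrong member, so the level of a single Ly49 gene is less certain than that of the family.

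The share of NK cells asked whether loss of Nlrp3 went with a different number of them in the healing enthesis. NK cells made up 0.348%, 0.503% and 0.364% of quality-passing cells in the wild-type libraries and 0.068%, 0.178% and 0.239% in the Nlrp3-/- libraries. Each wild-type value was above each Nlrp3-/- value. The means were 0.405 ± 0.0851% and 0.161 ± 0.0864% (SD, n = 3 libraries each), 2.51-fold apart, with an exact two-sided permutation p of 0.1, the smallest that 3 against 3 libraries can give (0.15 after Benjamini-Hochberg adjustment over 3 such tests). Without Nlrp3-/- replicate 1 the ratio was 1.95. The limit on Cd3 UMIs took the counts from 68, 105 and 64 to 50, 89 and 41 cells in the wild-type libraries. In the Nlrp3-/- libraries it took them from 32, 64 and 57 to 20, 24 and 34, a larger part. Before that limit wild-type replicate 1 (68 of 12636 cells) and Nlrp3-/- replicate 2 (64 of 11824) had nearly equal shares. Wilson 95% confidence intervals, which cover counting error only, ran from 0.26% to 0.627% over the wild-type libraries and from 0.0412% to 0.337% over the Nlrp3-/- libraries, so single libraries of the groups overlapped within counting error. Fewer NK cells and less RNA captured per NK cell cannot be told apart by a rule on UMIs. When the limits were applied after thinning every cell to 1000 UMIs, the means were 2.26-fold apart and the groups overlapped (0.157 ± 0.0628% and 0.0692 ± 0.0390%, exact permutation p = 0.2).

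A share of all cells also moves with the number of other cells, so NK cells were set against T cells of the same library. There were 31.2, 40 and 27.1 NK cells per 100 T cells in the wild-type libraries and 6.44, 10.8 and 10.9 in the Nlrp3-/- libraries. The lowest wild-type library thus stood at over 2 times the highest Nlrp3-/- library. The means were 32.8 ± 6.60 and 9.38 ± 2.55 (SD, n = 3), 3.49-fold apart with an exact permutation p of 0.1, and the 2 groups did not overlap in any of the alternatives tried, the thinned rule included. With cells of every type that had over 1% myeloid marker UMIs left out, there were 32.3 ± 7.69 and 9.80 ± 2.30 NK cells per 100 T cells. The NK share was then 0.904 ± 0.194% and 0.322 ± 0.149% of the remaining cells. These numbered 4191 instead of 12636 in wild-type replicate 1, so these shares cannot be set against those over all cells. Cells that met the neutrophil rule made up 9.42 ± 0.883% of wild-type and 3.70 ± 2.47% of Nlrp3-/- libraries (exact permutation p = 0.1). That rule can miss neutrophils with few UMIs, so these shares are not the full neutrophil content. Another leukocyte share thus moved with the NK share, and its part in the result was not tested. T cells themselves were 1.24 ± 0.115% of cells in wild-type and 1.63 ± 0.568% in Nlrp3-/- libraries and overlapped (exact permutation p = 0.4). With NK cells chosen instead by at least 2 UMIs over Eomes, Klre1, Klra4 and Klra8, an alternative added after the data were seen, the means were 44.1 ± 8.11 and 11.2 ± 1.21 NK cells per 100 T cells.

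**Figure D2:**
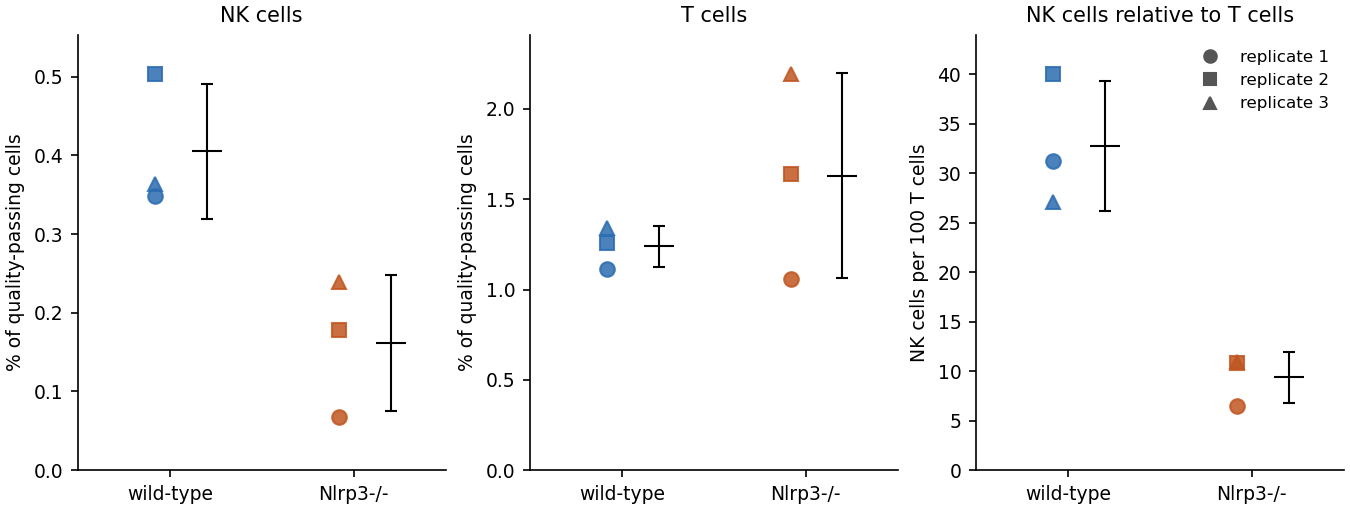
NK cells and T cells as a percentage of quality-passing cells, and NK cells per 100 T cells, for each of 6 libraries (symbols mark the replicate, bars the mean ± SD of 3). NK cells lie lower in all 3 Nlrp3-/- libraries, T cells overlap between the genotypes, and the ratio runs from 27.1 to 40 in wild-type and from 6.44 to 10.9 in Nlrp3-/- libraries.

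Gene levels in NK cells were compared between the genotypes on UMIs summed over the NK cells of a library, 227205, 283440 and 235891 UMIs in the wild-type and 37622, 102801 and 128133 in the Nlrp3-/- libraries. The largest cell held 10.3%, 4.52% and 19.2% of these sums in the wild-type and 11.9%, 22.2% and 10.4% in the Nlrp3-/- libraries. In wild-type replicate 3 the 2 largest cells had 45277 and 37205 UMIs, with 2 and 8 UMIs of Nkg7. Of 2709 genes with enough counts, 6 passed an adjusted p of 0.05 in the edgeR quasi-likelihood test (0.221%), 2 higher (0.0738%) and 4 lower (0.148%) in Nlrp3-/- libraries, and 321 had an unadjusted p below 0.05 (11.8%), 134 higher (4.95%) and 187 lower (6.90%). The groups did not overlap for 18.0% of all tested genes, 10.6% higher and 7.42% lower in Nlrp3-/- libraries, which is the background for each gene list below. The median log2 fold change over all tested genes was -0.00264. Sums of this depth were simulated with many genes changed and the same dispersion for every gene. The same test then recovered 95.2% of genes changed 4-fold and 14.5% of genes changed 2-fold, so 2-fold differences were mostly out of reach. In the data, Runx2 and Kit at log2 fold changes of 2.01 and 2.18 did not pass (edgeR adjusted p = 0.0514 and 0.203). The 95.2% therefore need not hold for the data, whose settings differ.

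Killing genes came first. Of 17 genes of the cytotoxic list 10 could be tested, none passed, and their median log2 fold change was -0.249. Gzma (granzyme A, chromosome 13) stood at 4520, 4220 and 2688 CPM in the wild-type and 2259, 2082 and 2482 CPM in the Nlrp3-/- libraries. All wild-type values were above all Nlrp3-/- values, although wild-type replicate 3 was close to them. The log2 fold change of Gzma was -0.85 ± 0.23 (SE), with an unadjusted p of 0.00261 and an edgeR adjusted p of 0.203. Without wild-type replicate 3 it was -1.08 with an adjusted p of 0.00832, without cells over 10000 UMIs it was -1.33 with an adjusted p of 0.00836, with no filter on low counts the adjusted p was 0.00743 and with DESeq2 0.0414, and the range of adjusted p over the 20 alternatives was 0.00743 to 0.698. Some of these settings called more genes of every kind, with 41 of 2347 tested genes passing without wild-type replicate 3 and 123 of 13194 with no filter. Without the cells of over 1% myeloid marker UMIs Gzma was at 5089, 4375 and 2747 CPM against 2259, 2675 and 2482 CPM. Thinned to 1000 UMIs, Gzma was detected in 79.5%, 79.5% and 69.4% of wild-type NK cells and in 66.7%, 38.1% and 59.4% of Nlrp3-/- NK cells. In Nlrp3-/- NK cells 343 of 617 Gzma UMIs came from the 3 highest cells of each library, and in wild-type NK cells 608 of 2857. These highest cells are a larger part of the 68 Nlrp3-/- NK cells than of the 158 wild-type NK cells. The shares therefore cannot show whether Gzma was more concentrated in either genotype.

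No other tested effector was lower in every Nlrp3-/- library. Prf1 (perforin, the pore former) was at 136 ± 14.3 CPM in wild-type and 142 ± 64.2 CPM in Nlrp3-/- NK cells, and Gzmb (granzyme B) at 262 ± 71.4 and 246 ± 101 CPM (SD, n = 3), both with overlapping groups. Srgn, the proteoglycan that packs granules, was at 1449 ± 159 and 1060 ± 341 CPM, with a log2 fold change of -0.58 and an adjusted p of 0.369. Ctsw, a granule protease, Serpinb6b and Serpinb9, inhibitors that protect the killer cell, had log2 fold changes of 0.10, -0.30 and 0.14. Fasl, the death ligand, was at 52.8, 63.5 and 42.4 CPM against 79.7, 77.8 and 125 CPM, with non-overlapping groups and an adjusted p of 0.444. Nkg7, a rule gene, was at 1496 ± 597 and 1537 ± 380 CPM.

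Among cytokines and chemokines, Ccl5 (RANTES) was the most abundant, at 7007, 7857 and 4951 CPM in the wild-type and 5662, 3288 and 3364 CPM in the Nlrp3-/- libraries. The highest Nlrp3-/- library overlapped with the lowest wild-type library. Its log2 fold change of -0.81 ± 0.24 had an adjusted p of 0.208, and without wild-type replicate 3 it was -1.01 with an adjusted p of 0.0301. The adjusted p of Ccl5 was also below the threshold with at least 2000 UMIs per cell (0.0404), without cells over 10000 UMIs (0.00345) and with no filter on low counts (0.00436). In all, Ccl5 was called in 4 of 20 alternatives, with adjusted p values up to 0.698. Without the cells of over 1% myeloid marker UMIs Ccl5 was at 6965, 8030 and 4908 CPM against 5662, 4000 and 3364 CPM, so the groups overlapped. Ifng, the signature cytokine of NK cells, was at 299, 191 and 110 CPM and at 106, 263 and 234 CPM, so the group means of 200 ± 94.9 and 201 ± 83.3 CPM differed by far less than their spread. Ccl4 and Ccl3, chemokines that draw monocytes, were at 732 ± 147 against 602 ± 113 CPM and at 145 ± 58.5 against 67.0 ± 44.4 CPM. Xcl1, which attracts cross-presenting dendritic cells, was at 427 ± 263 and 482 ± 126 CPM, and Tgfb1 at 216 ± 55.5 and 152 ± 47.7 CPM. Of the 8 genes of this list that could be tested none passed, and their median was -0.527.

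Activating receptors and their adaptors were measured next. Klrk1 (NKG2D) was at 271 ± 52.7 and 389 ± 172 CPM, and Itgb2, the shared chain of the integrins LFA-1 and Mac-1, at 164 ± 37.1 and 303 ± 132 CPM. Klrc2 (NKG2C) was at 66.0, 77.6 and 174 CPM in the wild-type and 346, 292 and 187 CPM in the Nlrp3-/- libraries. The 2 groups did not overlap for Klrc2, and its log2 fold change of 1.23 ± 0.39 had an adjusted p of 0.221, or 0.0373 without wild-type replicate 3, where it was 1.72. Only this 1 of 19 alternatives called Klrc2, and its adjusted p ranged up to 0.7. Ncr1, a rule gene, was at 163, 268 and 237 CPM and at 452, 399 and 429 CPM, with a log2 fold change of 0.83 that cannot be read apart from the choice of cells. Of the 8 receptors tested none passed.

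Hcst (DAP10), the adaptor that couples NKG2D to its kinases, was at 414, 554 and 297 CPM in the wild-type and 239, 126 and 234 CPM in the Nlrp3-/- libraries. It was lower in every Nlrp3-/- library, with a log2 fold change of -1.22 ± 0.34 and an adjusted p of 0.203, and without wild-type replicate 3 it was -1.45 with an adjusted p of 0.0341. The adjusted p of Hcst was also below the threshold without cells over 10000 UMIs (0.0164) and with no filter on low counts (0.00419). In all, Hcst was called in 3 of 20 alternatives, with adjusted p values up to 0.698. Without the cells of over 1% myeloid marker UMIs Hcst was at 410, 564 and 308 CPM against 239, 162 and 234 CPM. In the T cells of the same libraries Hcst was between 408 and 502 CPM in wild-type and between 248 and 431 CPM in Nlrp3-/- libraries. Tyrobp (DAP12), the adaptor of Ly49D and Ly49H, was at 1771 ± 611 and 1212 ± 313 CPM with a log2 fold change of -0.68 and an adjusted p of 0.379. Fcer1g, the adaptor of NKp46 and of the Fc receptor, was at 1958 ± 376 and 1896 ± 345 CPM. None of the 8 adaptors tested passed, Sh2d1a and Sh2d2a included.

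**Figure D3:**
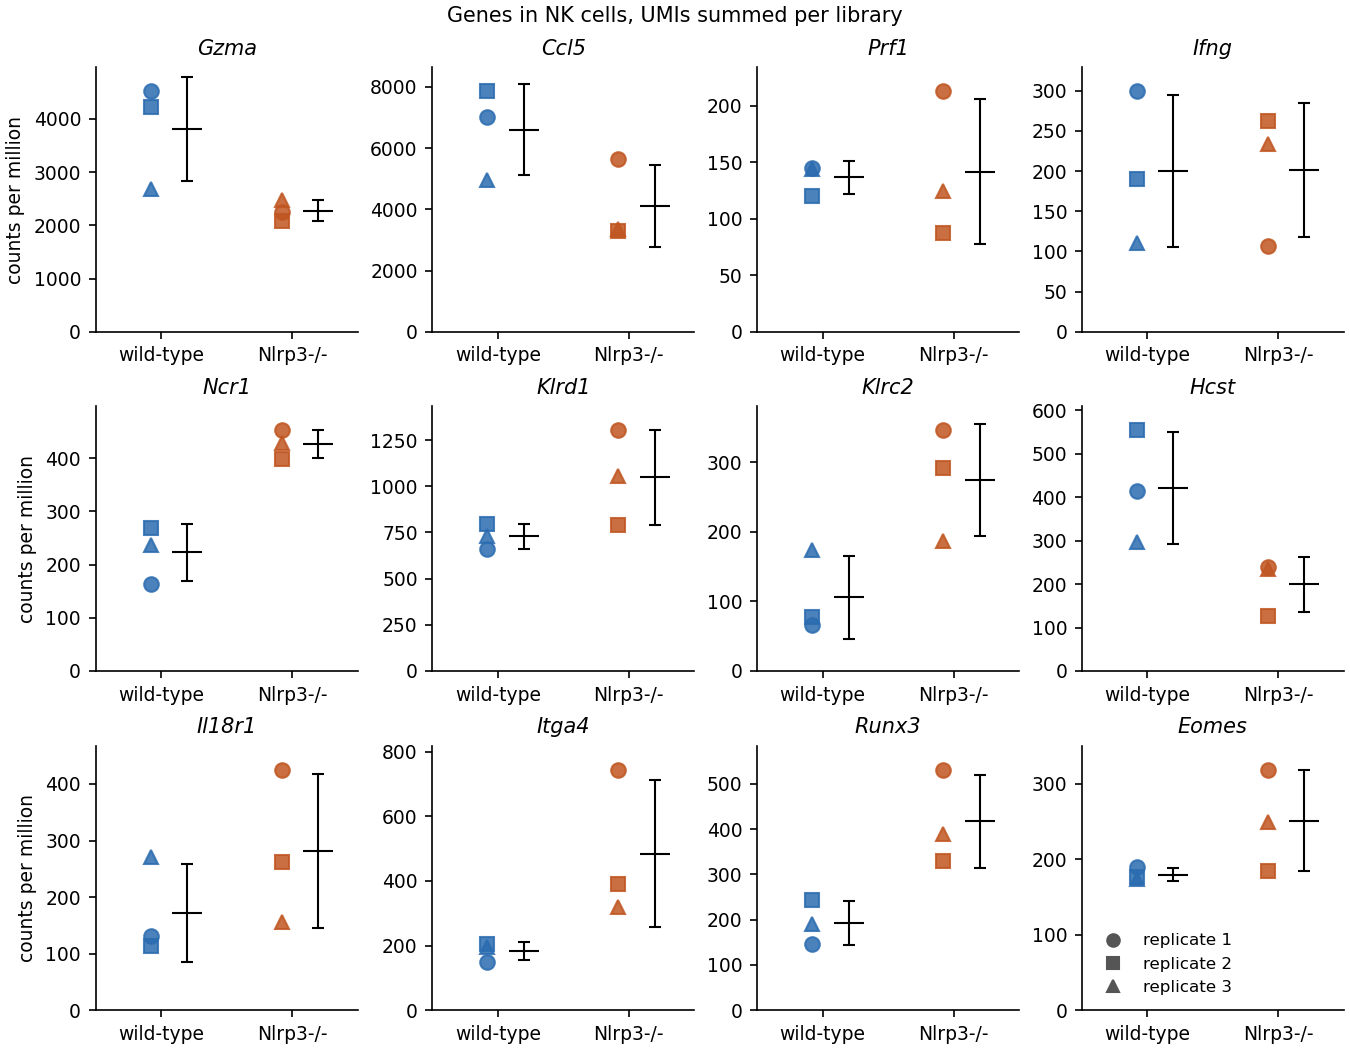
CPM of 12 genes in NK cells, on linear axes that start at 0, for each library (symbols mark the replicate) with the mean ± SD of 3 libraries. Groups do not overlap for Gzma, Ncr1, Klrc2, Hcst, Itga4 and Runx3 and overlap for the others, and none of the 12 passed an adjusted p of 0.05.

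Inhibitory receptors had a median log2 fold change of 0.349 over 9 tested genes, and none passed. Klrd1 was at 660, 797 and 729 CPM in the wild-type and 1302, 788 and 1054 CPM in the Nlrp3-/- libraries, with a log2 fold change of 0.40 ± 0.24 and an adjusted p of 0.534. Its partner Klrc1 (NKG2A) was at 88.0, 98.8 and 131 CPM against 266, 107 and 265 CPM, with an adjusted p of 0.369. Klre1 was at 416 ± 105 and 509 ± 155 CPM and Klrb1b (NKR-P1D), which recognises the ligand Clr-b, at 138 ± 21.1 and 156 ± 53.2 CPM. Klrg1, a receptor of terminally mature NK cells, was detected in 16 of the 226 cells and stayed below 25 CPM in every library.

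The Ly49 receptors sense MHC class I molecules and are switched on in a mosaic over single NK cells. Of the 8 Klra genes measured, Klra7 (Ly49G) was at 273 ± 67.7 CPM in wild-type and 369 ± 45.4 CPM in Nlrp3-/- NK cells, Klra4 at 331 ± 150 and 309 ± 82.8 CPM, and Klra8 at 335 ± 65.6 and 273 ± 90.3 CPM. Klra9 (Ly49I) was at 108 ± 45.3 and 71.8 ± 33.7 CPM, Klra1 (Ly49A) at 70.0 ± 29.7 and 131 ± 82.0 CPM and Klra3 (Ly49C) at 71.5 ± 33.9 and 76.5 ± 76.0 CPM. Klra6 and Klra5 had 9 and 1 cells with a UMI in all. No Ly49 gene passed, all groups overlapped, and adjusted p values of the 6 tested genes lay between 0.497 and 0.905.

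Per cell, 55 of the 226 NK cells (24.3%) had no Ly49 UMI, 51 had UMIs of 1 Ly49 gene, 57 of 2 genes and 63 (27.9%) of 3 or more. Cells without any made up 25%, 12.8% and 33.3% of wild-type and 26.7%, 42.9% and 28.1% of Nlrp3-/- NK cells, so the ranges overlapped. After thinning to 1000 UMIs the share without any was 39.2 ± 8.99% and 47.0 ± 17.3% (SD, n = 3). A cell counted as having none may carry a receptor whose RNA was not captured.

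**Figure D4:**
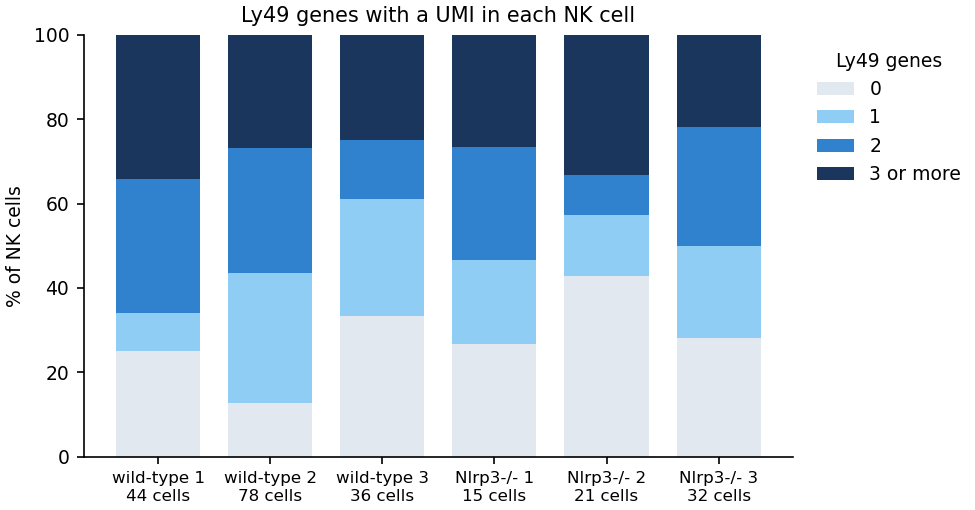
Percentage of the NK cells of each library in which 0, 1, 2 or 3 or more of the 8 Ly49 (Klra) genes had a UMI, stacked to 100%. Cells with 3 or more range from 21.9% to 34.1% of a library, and the libraries of the 2 genotypes overlap in every class.

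The receptors for IL-12, IL-15 and IL-18 address how NK cells could sense an inflammasome product. Il18r1 was at 132, 113 and 271 CPM in the wild-type and 425, 263 and 156 CPM in the Nlrp3-/- libraries, and Il18rap, the second chain of the IL-18 receptor, at 134 ± 34.7 and 175 ± 43.6 CPM. Both overlapped, with adjusted p values of 0.685 and 0.778. Il12rb2 was at 46.4 ± 22.0 and 83.7 ± 67.7 CPM, Il2rb at 662 ± 89.4 and 1024 ± 383 CPM, and Il2rg, the common gamma chain, at 89.7 ± 17.8 and 162 ± 71.9 CPM. Ifngr1 was at 587 ± 112 and 1000 ± 423 CPM (unadjusted p = 0.0481, edgeR adjusted p = 0.417). All 8 testable cytokine receptors had a log2 fold change above 0, with a median of 0.545, and none passed. In Nlrp3-/- replicate 1, whose NK sum was the smallest at 37622 UMIs, Il18r1, Il12rb2, Il2rb, Il2rg and Ifngr1 each had their highest value.

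Of genes that IL-12, IL-15 or IL-18 induce in NK cells, 10 could be tested, 7 of them below 0, and none passed. Nfkbia, the feedback inhibitor of NF-kappaB, was at 1149, 1316 and 1238 CPM in the wild-type and 744, 662 and 913 CPM in the Nlrp3-/- libraries, without overlap. Its log2 fold change of -0.77 ± 0.22 had an adjusted p of 0.203. The survival gene Mcl1 and the kinase gene Pim1 had adjusted p values over the alternatives of at least 0.511 and 0.653.

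Homing and adhesion genes had a median log2 fold change of 0.33 over 11 tested genes, 10 of them above 0, and none passed. Itga4, a chain of the integrin VLA-4 that binds VCAM-1, was at 150, 205 and 195 CPM in the wild-type and 744, 389 and 320 CPM in the Nlrp3-/- libraries. Every Nlrp3-/- value of Itga4 was higher, with a log2 fold change of 1.20 ± 0.32 and an adjusted p of 0.203 (0.0381 in the DESeq2 Wald test, and 0.698 at most over the 20 alternatives). Selplg, Itgb1 and the chemokine receptor Cxcr4 had adjusted p values over the alternatives of at least 0.713, 0.79 and 0.462.

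Transcription factors included the T-box pair that sets NK identity. Eomes was at 189, 176 and 174 CPM in the wild-type and 319, 185 and 250 CPM in the Nlrp3-/- libraries, and Tbx21 (T-bet) at 80.5 ± 7.52 and 125 ± 77.1 CPM. Both overlapped, with adjusted p values of 0.708 and 0.814. Runx3, which supports NK maturation, was at 145, 243 and 191 CPM against 532, 331 and 390 CPM, without overlap and with a log2 fold change of 0.95 ± 0.29 and an adjusted p of 0.208. Tcf7 (TCF-1), a factor of less mature NK cells, was at 52.8, 91.7 and 110 CPM against 213, 214 and 125 CPM, without overlap and with an adjusted p of 0.327. Irf8, Id2 and Ets1 had log2 fold changes of -0.08, -0.05 and 0.47, and of these only Ets1 did not overlap between the groups. None of the 15 tested factors passed.

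Genes of maturation were then split by stage. Of 10 tested immature NK genes 9 had a log2 fold change above 0, with a median of 0.437, and 3 did not overlap, all higher in Nlrp3-/- libraries. Of 6 tested mature NK genes 3 lay above 0, with a median of -0.4, and none of either list passed. The 12 mature NK genes summed to 2782 ± 665 and 1640 ± 130 CPM in NK cells, to 2605 and 2289 CPM in T cells and to 3369 and 2493 CPM in barcodes with at most 100 UMIs, so the sum in NK cells was no higher than in free RNA. Kit, the stem cell factor receptor, was at 8.80, 28.2 and 8.48 CPM against 106, 87.6 and 62.4 CPM, with a log2 fold change of 2.18 ± 0.61 and an adjusted p of 0.203. Thy1 was at 52.8, 113 and 33.9 CPM against 159, 117 and 187 CPM, without overlap and with an adjusted p of 0.343. Emb and Ctla2a, abundant genes of the immature list, were at 611 ± 68.7 against 927 ± 342 CPM and at 914 ± 464 against 1347 ± 689 CPM. Ly6c2, a gene of mature NK cells and of monocytes, was at 440, 219 and 704 CPM against 53.2, 282 and 85.9 CPM, with a log2 fold change of -1.62 ± 0.52, an adjusted p of 0.221 and overlapping groups. Its adjusted p was 4.64e-05 with no filter on low counts, and without the cells of over 1% myeloid marker UMIs Ly6c2 differed by -1.53 on the log2 scale (adjusted p = 0.264). Only 1 of 19 alternatives called Ly6c2, and its adjusted p ranged up to 0.895. Lgals1 was at 1780 ± 730 and 1014 ± 236 CPM, with adjusted p = 0.242 over all libraries and 0.0269 without wild-type replicate 3, where its log2 fold change was -1.24. Without the cells of over 1% myeloid marker UMIs Lgals1 had a log2 fold change of -0.80 with an adjusted p of 0.174, and with no filter on low counts the adjusted p was 0.00416. In all, Lgals1 was called in 2 of 20 alternatives, with adjusted p values up to 0.764.

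Cd27, which marks less mature cells, was at 89.7 ± 17.0 and 125 ± 43.6 CPM, and Itgam (CD11b), which marks mature NK cells and also myeloid cells, at 66.7 ± 21.6 and 82.2 ± 73.4 CPM. Tissue-resident type 1 innate lymphoid cells (ILC1) share Ncr1 and Klrb1c with NK cells, so the rule cannot separate them. Of the 10 genes listed for ILC1, Itga1 (CD49a) had a UMI in 13 and Cxcr6 in 7 of the 226 cells. The most frequent of the list were Tmem176b in 31, Tmem176a in 28 and Kit, given above, in 23 cells. Il7r was at 68.9 ± 50.6 and 105 ± 23.6 CPM. A UMI of at least 1 of the ILC1 genes Itga1, Cxcr6, Cd200r1 and Il7r was present in 31 cells. Of the mature NK genes Itgam, Klrg1, S1pr5 and Cx3cr1, at least 1 had a UMI in 62 cells. Both of these short sets were seen in 11 cells and neither in 144.

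Dividing cells were called by at least 2 UMIs over 20 cell division genes after thinning to 1000 UMIs. They made up 20.5%, 14.1% and 19.4% of wild-type and 6.67%, 19.0% and 21.9% of Nlrp3-/- NK cells, which is 1 of 15 cells in Nlrp3-/- replicate 1. The groups overlapped, at 18.0 ± 3.41% and 15.9 ± 8.09% (SD, n = 3, exact permutation p = 0.8), and without Nlrp3-/- replicate 1 the difference turned to 2.46 percentage points higher in Nlrp3-/- libraries. Without the cells of over 1% myeloid marker UMIs the shares were 18.2 ± 3.08% and 14.5 ± 7.62%. Without cells over 10000 UMIs both were lower, at 11.05 ± 1.41% and 10.53 ± 7.67%. The 39 dividing cells had a median of 9049 UMIs against 2825 in the other 187. Dividing cells had lower levels of Klrd1 (417 against 1060 CPM), Klra8 (173 against 408 CPM), Ccl5 (2221 against 8356 CPM) and Gzma (2695 against 3915 CPM). They had higher levels of Ly6c2 (627 against 187 CPM), Tnf (173 against 47.9 CPM) and Lgals1 (2026 against 1234 CPM). The rule genes were lower as well, with Nkg7 at 1018 against 1824 CPM, Ncr1 at 188 against 339 CPM and Klrb1c at 129 against 339 CPM. A deep cell can pass the rule with few NK UMIs, and the part of depth or of RNA from other cell types was not tested. All these levels are a description over pooled UMIs with no test, and the cells with the most UMIs weigh most in them. Ly49 genes went both ways, with Klra1 at 117 against 59.5 CPM and Klra3 at 100.1 against 66.1 CPM. Top2a, Stmn1, Birc5 and Pclaf did not pass between the genotypes, nor did any of 16 tested division genes. Ube2c had a log2 fold change of -1.42 with an adjusted p of 0.369 (0.0012 with no filter on low counts, the only 1 of 18 alternatives that called it).

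No testable gene of the interferon-stimulated or immediate-early lists passed between the genotypes. Of 10 testable interferon-stimulated genes 5 lay above and 5 below 0, with a median of 0.0222, and the immunoproteasome genes Psmb8 and Psmb9 had adjusted p values of at least 0.622 and 0.453 over the alternatives. All 16 immediate-early and dissociation genes were tested, 10 of them above 0 with a median of 0.146, and Junb, Jund, Btg2, Hsp90aa1 and Dnaja1 were among those that did not pass. Pycard (ASC), the adaptor of the inflammasome, was at 274 ± 14.3 and 298 ± 117 CPM in NK cells, and Casp1 at 31.4 ± 13.5 and 24.4 ± 15.7 CPM. Il18 stayed below 8 CPM in every library.

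The 4 genes that fell (called lower) in Nlrp3-/- NK cells were Cxcl2, Il1b, Ifi30 and Tpm3-rs7. Cxcl2, a chemokine that draws neutrophils and is made mainly by myeloid cells, was at 797, 674 and 890 CPM in the wild-type and 26.6, 9.73 and 31.2 CPM in the Nlrp3-/- libraries. It fell by 5.19 ± 0.39 on the log2 scale (edgeR adjusted p = 8.15e-06). Il1b, the inflammasome substrate IL-1 beta, was at 176, 229 and 110 CPM against 0, 0 and 7.80 CPM. This is 131 UMIs against 1 UMI, a ratio of 47.1 per UMI captured with an exact 95% counting interval of 8.31 to 1880. That interval takes each UMI as independent, although 113 of the 131 came from the 3 highest cells of each library, so it is too narrow. The edgeR adjusted p of Il1b was 0.00519. Ifi30 (GILT), a lysosomal reductase of antigen-presenting cells, was at 207, 155 and 174 CPM against 26.6, 29.2 and 31.2 CPM, with a log2 fold change of -2.65 ± 0.41 and an adjusted p of 0.0105. Ifi30 missed the threshold without Nlrp3-/- replicate 1, 2 or 3 (adjusted p = 0.051, 0.0827 and 0.158), with log2 fold changes of -2.64, -2.71 and -2.74 that stayed near that over all libraries. Il1b missed it without Nlrp3-/- replicate 3 (adjusted p = 0.0601), where the other Nlrp3-/- libraries both had 0 UMIs of it.

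In NK cells the UMIs of these 3 genes were concentrated in few cells. The 3 highest cells of each library held 521 of 582 wild-type Cxcl2 UMIs (89.5%), 113 of 131 Il1b UMIs (86.3%) and 101 of 132 Ifi30 UMIs (76.5%). Cxcl2 had a UMI in 49 of 158 wild-type and in 6 of 68 Nlrp3-/- NK cells. In neutrophils of the same libraries Cxcl2 was at 5033, 13830 and 5201 CPM in the wild-type and 16500, 1135 and 2460 CPM in the Nlrp3-/- group, so the groups overlapped there. In barcodes with at most 100 UMIs, which hold free RNA, it was between 1787 and 2951 CPM and between 566 and 3231 CPM. With cells of over 1% myeloid marker UMIs left out, Cxcl2 was at 64.0, 448 and 823 CPM against 26.6, 12.5 and 31.2 CPM and Il1b at 6.40, 149 and 39.6 CPM against 0, 0 and 7.80 CPM. Neither then had enough counts to be tested, and Ifi30 had a log2 fold change of -2.15 ± 0.50 with an adjusted p of 0.0868. Il1b then overlapped between the genotypes. With the cells chosen by Eomes, Klre1, Klra4 and Klra8, Il1b had a log2 fold change of -0.48 with an adjusted p of 0.889 and Ifi30 one of -1.04 with an adjusted p of 0.517. Ifi30 in neutrophils was between 204 and 232 CPM in the wild-type and between 127 and 260 CPM in the Nlrp3-/- libraries, near its level in wild-type NK cells, and in B cells it was between 194 and 649 CPM and between 230 and 259 CPM. How much of these 3 differences lies in RNA from myeloid cells was not tested beyond these values.

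**Figure D5:**
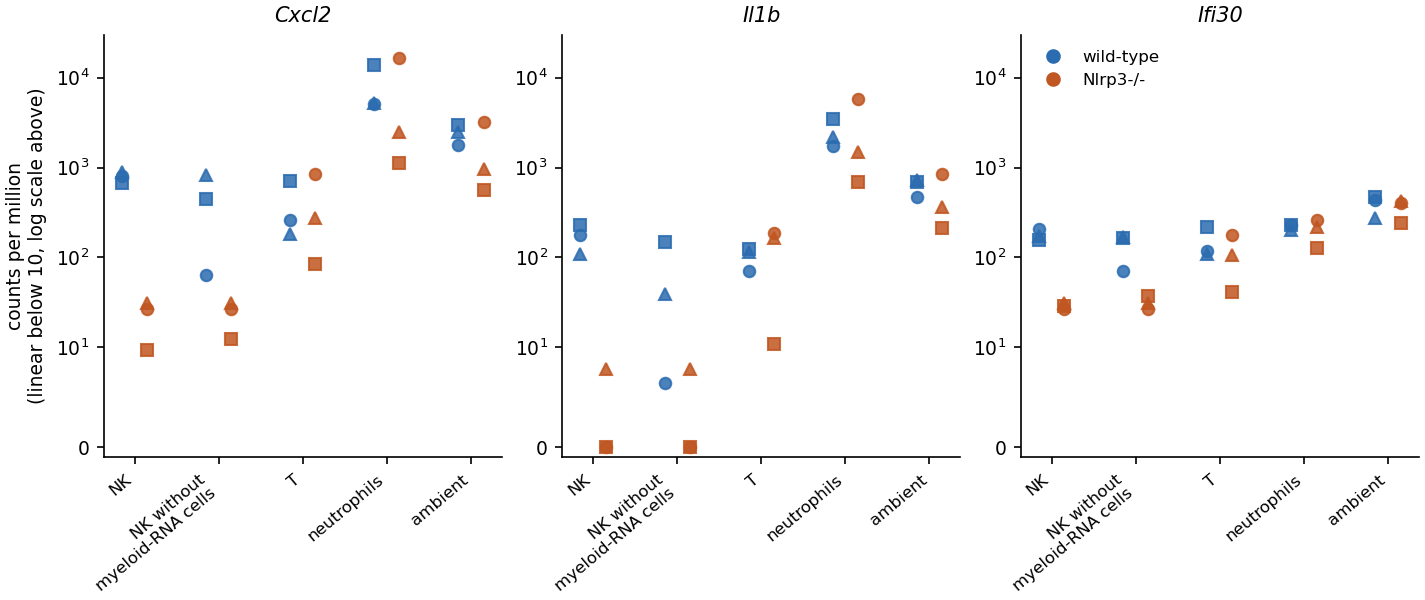
CPM of Cxcl2, Il1b and Ifi30 in NK cells, in NK cells without those over 1% myeloid marker UMIs, in T cells, in neutrophils and in barcodes with at most 100 UMIs (ambient), on an axis that is linear below 10 and logarithmic above. Symbols mark the replicate as circle, square and triangle for 1, 2 and 3, and the genotypes are apart in all NK cells, while Il1b overlaps between them without the cells of over 1% myeloid marker UMIs, at 6.40 CPM in wild-type replicate 1 and 7.80 CPM in Nlrp3-/- replicate 3.

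Tpm3-rs7, a tropomyosin-related gene on chromosome 14, had 42, 38 and 58 UMIs in wild-type NK cells and 0 in each Nlrp3-/- library, which against the same floor is at least 16.5-fold lower (adjusted p = 0.00368). How reads were assigned between it and the related gene Tpm3 was not examined and is uncertain. It was spread over 68 wild-type NK cells, and T cells of the same libraries showed the same order, at 193, 77.9 and 185 CPM against 5.53, 2.75 and 3.76 CPM. The 2 genes that rose were Xist, at 0 CPM in the wild-type and 1568, 1517 and 1982 CPM in the Nlrp3-/- libraries (at least 435-fold higher, adjusted p = 5.4e-07), and mt-Atp6. The latter, a subunit of ATP synthase encoded by the mitochondrial genome, was at 2095, 2396 and 3357 CPM and at 5157, 6255 and 6735 CPM, with a log2 fold change of 1.12 ± 0.20 and an adjusted p of 0.0394. Leaving out any 1 library other than wild-type replicate 3 took mt-Atp6 above the threshold, with adjusted p values up to 0.334. In all mt-Atp6 missed the threshold in 12 of 20 alternatives, while its log2 fold change stayed between 0.88 and 1.30. In T cells mt-Atp6 was between 2637 and 3622 CPM in wild-type and between 3570 and 7676 CPM in Nlrp3-/- libraries, and in B cells between 2580 and 3778 CPM and between 3798 and 7313 CPM. The median mitochondrial share over all cells of a library was 0.958%, 1.33% and 1.33% in the wild-type and 1.83%, 2.29% and 2.11% in the Nlrp3-/- group, and its part in the mt-Atp6 difference was not tested.

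Whether the genotype difference in NK cells was unlike that in T cells was tested as an interaction with the library as a block. Of 5976 genes 2 passed (0.0335%), Cxcl2 and Il1b, both with a lower effect in NK cells. An unadjusted p below 0.05 was found for 189 of the 5976, which is less than 0.05 of them. Cxcl2 in T cells was at 380 CPM in wild-type (181 to 702) and 399 CPM in Nlrp3-/- libraries (85.3 to 839), and the log2 difference of the effects was -4.93 ± 0.70 with an edgeR adjusted p of 0.013. Il1b in T cells was at 103 CPM (69.8 to 123) and 120 CPM (11.0 to 186), and the log2 difference was -5.51 ± 0.84 with an adjusted p of 0.0181. No gene passed without Nlrp3-/- replicate 1 or without Nlrp3-/- replicate 3, where 175 of 6186 and 219 of 6406 genes had an unadjusted p below 0.05. The log2 difference of Cxcl2 was then -4.31 and -5.65. That of Il1b was -5.06 without Nlrp3-/- replicate 1, and without Nlrp3-/- replicate 3 it was set against NK cells with 0 UMIs of Il1b. Without cells over 1% myeloid marker UMIs the log2 differences of Cxcl2 and Il1b were -3.72 ± 0.91 and -2.98 ± 1.29 with adjusted p values of 0.211 and 1, although 2 other genes then passed. No gene of the receptor or effector lists passed this test. In sums simulated with the same dispersion for every gene, it recovered 54% of genes raised 4-fold in Nlrp3-/- NK cells only. Differences of that size between NK and T cells could therefore be missed.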

How the data were processed

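The deposited matrices held raw counts of UMIs per gene and barcode for 6 libraries, which the authors made with Cell Ranger (version 2.1.1 in the submitters' processing notes, 4 in the file headers) on mm10. All barcodes were present, and no cell annotation was used. The members and gene lists were chosen with earlier results of these data known. Libraries were grouped by their titles. UMIs of NK cells were summed per library and tested with edgeR 4.0.16 (TMM, filterByExpr, quasi-likelihood, Benjamini-Hochberg, threshold 0.05) in R 4.3.3. The NK against T cell interaction carried the library as a block. Shares were compared by exact two-sided permutation of libraries (scipy 1.17.1). Doublets were not removed in the main analysis, and Scrublet (scanpy 1.11.5) calls at an expected 0.8% per 1000 cells were an alternative. Named genes were those past the threshold with at least 20 CPM and no overlap, up to 5 of highest mean CPM in each NK list, the rule genes, preset NK genes, and the 15 of largest NK to T ratio. Tests ran first on simulated data. Of 32285 gene IDs 32158 were matched to GENCODE M21 for positions. Promoters are RefSeq, GRCm38.p6. Confidence intervals and floors of 3 counts cover counting error only, and those on UMIs take each UMI as independent. Alternatives were DESeq2 1.42.0, other normalization, filters, cell limits, ambient subtraction, a replicate block and each library left out.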

Additional observations from a re-analysis of the deposited data

Results flagged for a closer look

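Cxcl2 and Il1b stood out because their genotype effects in NK cells differed from those in T cells of the same libraries, by a test of the difference itself (the interaction of cell type and genotype with the library as a block). The log2 difference of the effects was -4.93 for Cxcl2 (edgeR adjusted p = 0.013) and -5.51 for Il1b (edgeR adjusted p = 0.0181). Neither passed without the cells of over 1% myeloid marker UMIs, at -3.72 (adjusted p = 0.211) and -2.98 (adjusted p = 1). Of the wild-type NK UMIs of the 2 genes, 265 of 582 for Cxcl2 and 81 of 131 for Il1b lay in the 13 cells with over 1% myeloid marker UMIs.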

How the results depend on the processing

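The NK share and the NK to T cell ratio were lower in Nlrp3-/- libraries under all 15 alternatives of each, with log2 ratios over libraries left out of -1.721 to -0.960 and -1.924 to -1.594. Alternatives with at least 500 UMIs, without cells over 1% myeloid markers, without cells over 10000 UMIs and with other NK genes were chosen after seeing the data. The dividing share turned to higher in Nlrp3-/- libraries with at least 2000 UMIs (0.143 percentage points), the strict rule (6.663) and other NK genes (1.233), and over libraries left out it ran from -5.143 to 2.461.
The 6 of 2709 genes called between genotypes became 3 of 1814 under the strict rule, 12 of 1731 without cells over 10000 UMIs and 10 of 2673 after ambient subtraction. Without a count filter 123 of 13194 were called (18 higher and 105 lower, with the median of all genes at -0.24). In DESeq2 22 of 2709 were called (6 higher and 16 lower). Over libraries left out the calls ran from 3 to 41. They were 10 of 2414 without wild-type replicate 2, 41 of 2347 without wild-type replicate 3 and 3 of 3832 without Nlrp3-/- replicate 3. Fitted with the replicate block 4 genes were called, as Ifi30 (edgeR adjusted p = 0.0712) and mt-Atp6 (0.101) missed the threshold. Same-numbered libraries did not deviate together (correlations -0.123, -0.194 and 0.0711), so the numbers were not taken as pairs. The 2 of 5976 interaction calls became 8 of 4564 after thinning, 1 of 5624 under the strict rule and 0 of 5391 after Scrublet (edgeR, 180 at an unadjusted p below 0.05). They became 8 of 5295 without cells over 10000 UMIs, 5 of 6319 with other NK genes, 18 of 16778 without a filter and 1 of 5976 in DESeq2. Over libraries left out they ran from 0 to 15. No replicate block was added there because the library was the block. Of 92 named gene results 14 changed their call in at least 1 alternative. With a change of direction counted only where either fit called the gene, 0 reversed. Genes without a call did change direction, such as Ifng (log2 fold change from -1.064 to 0.562) and Eomes (from -0.205 to 0.584). Xist was called in 20 of 20 alternatives and Cxcl2 in all 18 that could test it, which leave out those without cells over 1% myeloid markers and after thinning, where its counts were too low. Tpm3-rs7 missed the threshold under the strict rule (adjusted p = 0.0744). The causes were not tested. With 15 to 78 NK cells per library, low-abundance receptors and 2-fold changes were mostly beyond this depth.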
